A study of Mus musculus with 6 samples.

Results

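Proteasome genes were examined in polyadenylated RNA from 6 whole mouse testes. They were chosen by name, as every gene symbol of the forms Psma, Psmb, Psmc, Psmd, Psme, Psmf or Psmg followed by a number alone. All 48 such symbols occurred in each of the 6 count files, which have 21786 symbols in common. Of the 6 testes, 3 were grossly enlarged and came from Stra8 -/- males of 1 year on a C57BL/6 background. The other 3 were normal testes of Stra8 +/+ males of 2 to 4 months on the same background. Age and enlargement therefore follow genotype and cannot be told apart from it. The labels describe the enlarged testes as consisting mainly of cells resembling type A spermatogonia, the mitotic germ cells. Meiotic and later germ cells make up much of a normal adult testis. RNA of whole tissue was measured, so fewer cells of a type and less RNA per cell cannot be told apart.

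The proteasome is the protease that degrades proteins tagged with ubiquitin. Its core particle is a barrel of outer alpha rings and inner beta rings, and 3 of the beta subunits cut peptide bonds. A regulatory particle with a ring of ATPases binds, unfolds and feeds in the substrate. Variants of the core exist in mouse. Psma8 is an alpha subunit of male germ cells that takes the place of Psma7, and Psme4 encodes an activator cap that joins it in the proteasome of meiotic and haploid germ cells. Psmb8, Psmb9 and Psmb10 are the interferon-inducible catalytic subunits of the immunoproteasome and take the places of Psmb5, Psmb6 and Psmb7. Psmb11 is known from the cortex of the thymus.

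Over the symbols in common, each Stra8-deficient library held 7854465 to 12339771 reads assigned to genes, against 6711021 to 8907875 for wild type. Levels are given in CPM, counts per 1000000 reads of the library total times its TMM factor. Fold changes are log2 values of Stra8-deficient over wild type, and their standard error (SE) is approximate. Stra8 itself had 21.2, 23.7 and 18.1 CPM in Stra8-deficient libraries, against 18.7, 18.6 and 17.1 CPM in wild-type libraries, and since the deleted part of the allele is unknown here, this does not check the labels. The biological coefficient of variation was 38.2% among Stra8-deficient and 7.41% among wild-type libraries, so the enlarged testes varied far more among themselves. The count file of Stra8-deficient replicate 3 has a longer gene list, 23285 symbols against 22055 in each other file. All 10 listed spermatogonial markers were higher in Stra8-deficient testes. Of the listed markers of meiotic and pachytene spermatocytes 9 of 10 were lower, and so were all 7 of round and all 6 of elongating spermatids.

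Most proteasome genes were higher in the Stra8-deficient testes, and a small group that includes the germ cell variants was lower. Of the 48 members 46 passed the filter on low counts, and 35 of these were higher, 7 lower and 4 not called (adjusted p under 0.05 by Benjamini-Hochberg in edgeR's quasi-likelihood test). Of all 15018 genes tested, 39.0% were higher and 36.7% lower, 75.8% in either direction. The median log2 fold change was 1.38 over the tested members and 0.11 over all genes tested. The 3 Stra8-deficient libraries lay above all 3 wild-type libraries for 37 members and below them for 8, which was the case for 40.7% and 39.4% of all genes. With library size alone in place of TMM factors 38 members were higher and 4 lower, while the share of higher genes among all calls moved from 51.5% with TMM to 63.6% and the median of all genes to 0.73. No called member changed sign with RLE factors, upper-quartile factors or library size alone. Scaled to the common core subunits, 15 of the 35 higher members had values below 0. Of these Psmd4 and Psme3 were called lower and 13 were not called.

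**Figure D1:**
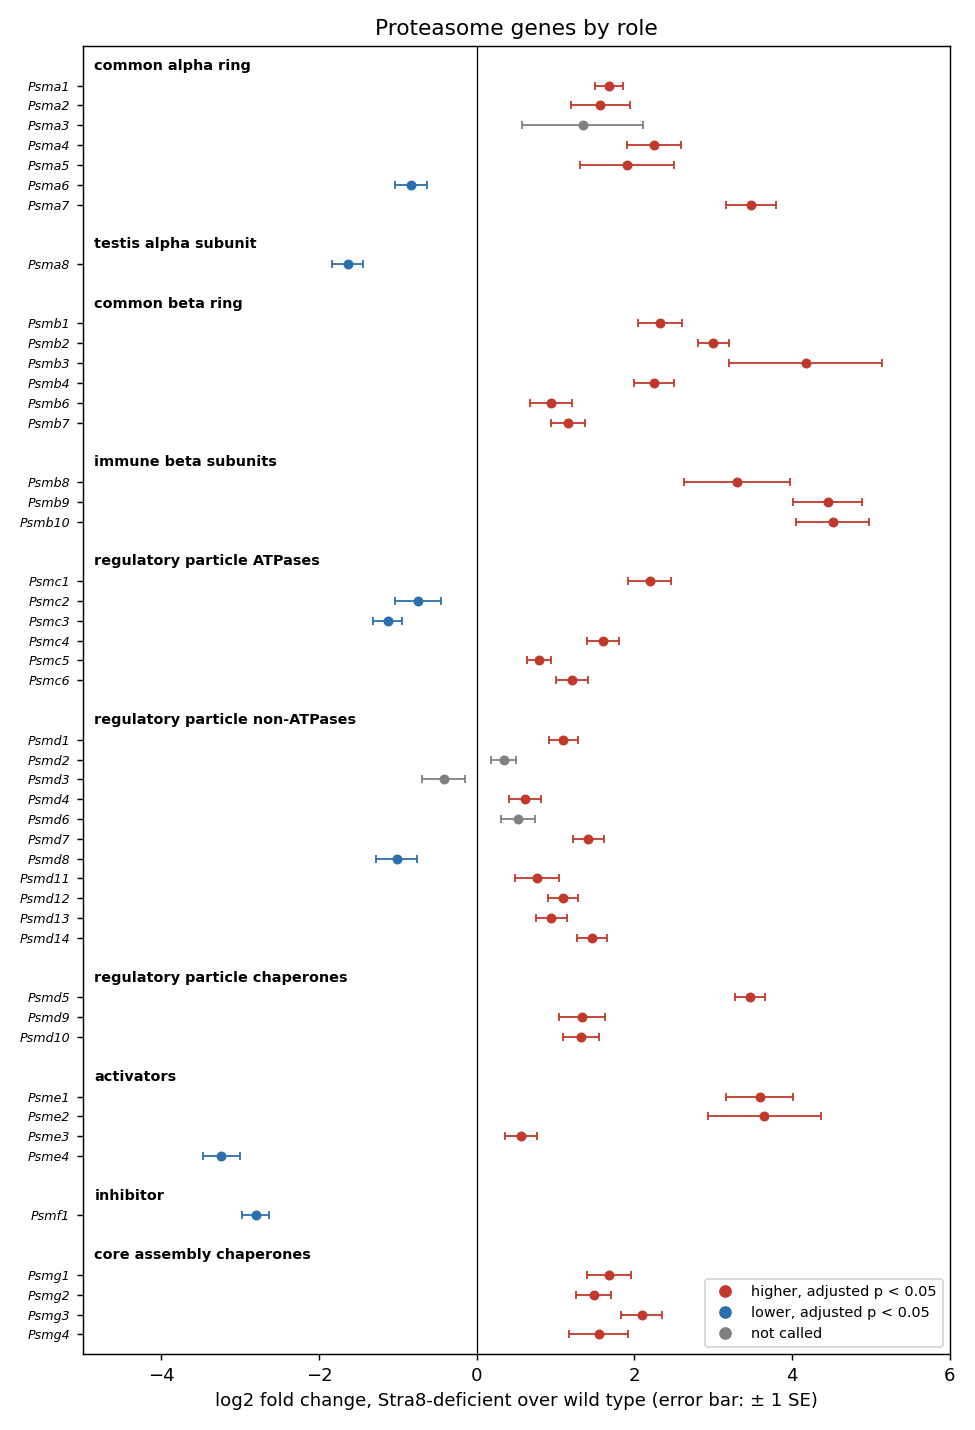
Log2 fold change of each tested proteasome gene, Stra8-deficient over wild type, with bars of 1 SE, grouped down the page by role. On the TMM scale the red points (35 genes, 15 of which fell below 0 when scaled to the common core subunits) were higher and the blue points at the left (7 genes) lower in Stra8-deficient testes, and the 4 grey ones were not called. Psme4 at -3.24, Psmf1 at -2.81 and Psma8 at -1.64 were the lowest.

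Taken as a sum, reads of the 14 common core subunits (Psma1 to Psma7 and Psmb1 to Psmb7) made up more of the Stra8-deficient libraries. Their summed level was 1769, 2024 and 3086 CPM in Stra8-deficient libraries, against 836, 837 and 729.7 CPM in wild-type libraries. The third Stra8-deficient library was the highest, and the genotypes did not overlap. The 48 members together had 6019.97, 6626 and 8890.3 CPM in Stra8-deficient libraries, against 5921, 6208 and 5793 CPM in wild-type libraries. This total overlapped between genotypes, since the lowest Stra8-deficient value lay below the second wild-type one.

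Among the alpha subunits the testis variant Psma8 was lower and its common counterpart Psma7 higher. Psma8, on chromosome 18, had 37.9, 56.2 and 47.6 CPM in Stra8-deficient libraries, against 151, 158 and 132 CPM in wild-type libraries. Every Stra8-deficient value lay below every wild-type value, but the gene was read in each Stra8-deficient library (378, 590 and 711 reads). Its level fell by 1.64 on the log2 scale (SE 0.19; edgeR, adjusted p = 5.23e-05), 3.11-fold. Summed over the 10 spermatocyte markers, levels were 244 to 351 CPM in Stra8-deficient and 9299.8 to 9929 CPM in wild-type libraries, with a median log2 fold change of -4.25, and their part in the level of Psma8 was not tested.

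Psma7, the common subunit that Psma8 replaces, rose more than any other member of the common alpha ring. It had 215, 346 and 510.5 CPM in Stra8-deficient libraries, against 34.4, 30.5 and 31.2 CPM in wild-type libraries. The groups did not overlap, and the log2 fold change was 3.48 ± 0.31 (SE; edgeR, adjusted p = 9.28e-06). Within a library, where scaling plays no part, the number of reads per transcript length of Psma8 over that of Psma7 was 0.121, 0.111 and 0.0638 in Stra8-deficient libraries, against 3.01, 3.53 and 2.90 in wild-type libraries. Per length, Psma8 thus was the less read of the pair in each enlarged testis and the more read in each normal one. The log2 ratio of reads averaged -2.85 ± 0.50 in Stra8-deficient testes, against 2.20 ± 0.15 in wild type (SD, 3 of each genotype), a 33.0-fold difference. Exact two-sided permutation gave p = 0.1, the smallest value that 3 against 3 libraries allow, and 0.133 adjusted over the 4 ratios tested. The transcripts of Psma8 and Psma7 had 0% of their 36-base stretches in common.

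The other common alpha subunits did not all follow Psma7. On the TMM scale Psma1, Psma2, Psma4 and Psma5 rose, with log2 fold changes from 1.57 (Psma2) to 2.24 (Psma4). Psma6 went the other way. It had 144, 164 and 226 CPM in Stra8-deficient libraries, against 324, 347 and 281 CPM in wild-type libraries, with no overlap. The difference was -0.83 ± 0.21 on the log2 scale (SE; edgeR, adjusted p = 0.00517), and it was not called with library size alone (-0.22; edgeR, adjusted p = 0.326). Psma3 had 0.703, 2.10 and 7.57 CPM in Stra8-deficient libraries, against 1.56, 1.13 and 1.47 CPM in wild-type libraries. These overlapped, and Psma3 was not called (1.34 ± 0.77; edgeR, adjusted p = 0.138). Its value was 0.02 without the third Stra8-deficient library, and it was called higher without the first (1.77) or with library size alone (1.94). Psma5 rested on 154 Stra8-deficient and 21 wild-type reads and lost its call without the third Stra8-deficient library (1.37), the first wild-type library (1.80) or the third (1.60).

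**Figure D2:**
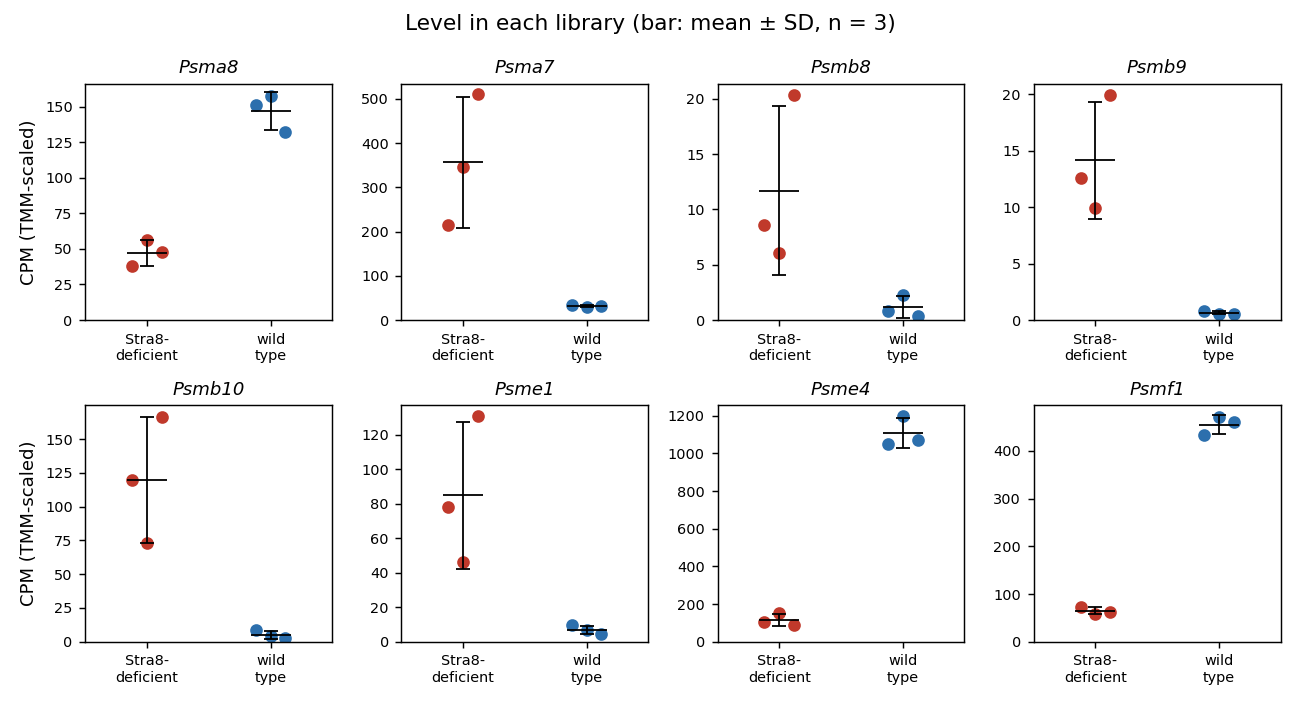
Level of 8 proteasome genes in each library, in TMM-scaled CPM on linear axes from 0, with Stra8-deficient libraries in red and wild-type libraries in blue and with the mean and SD of 3. Psma8, Psme4 and Psmf1 were lower in every Stra8-deficient library than in any wild-type one, and Psma7, Psmb8, Psmb9, Psmb10 and Psme1 were higher.

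All 6 tested subunits of the common beta ring rose on the TMM scale, and Psmb6 and Psmb7 lay below 0 against the common core sum. Psmb2 had 314, 356 and 441 CPM in Stra8-deficient libraries, against 45.9, 44.1 and 48.8 CPM in wild-type libraries (3.00 ± 0.19 on the log2 scale; SE; edgeR, adjusted p = 1.06e-06). Psmb4, the most read beta subunit per length in Stra8-deficient testes, had 444, 470.5 and 782 CPM in Stra8-deficient libraries, against 132, 118 and 106 CPM in wild-type libraries. Psmb1 was at 2.32 ± 0.28 on the log2 scale. The smallest rises belonged to the common catalytic subunits Psmb6 (0.94 ± 0.26) and Psmb7 (1.16 ± 0.21), while Psmb5, the third of them, could not be tested. Psmb5 was read 17, 5 and 52 times in Stra8-deficient libraries, against 7, 7 and 0 times in wild-type libraries, and the groups overlapped. Psmb3 had the largest value, 4.17 ± 0.97, over 16 wild-type reads. It was 3.30 without the third Stra8-deficient and 4.86 without the second wild-type library.

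All 3 immune catalytic subunits were higher in Stra8-deficient testes. Psmb10 had 119.7, 72.8 and 167 CPM in Stra8-deficient libraries, against 8.74, 4.09 and 2.75 CPM in wild-type libraries. Psmb9 had 12.5, 9.91 and 19.96 CPM in Stra8-deficient libraries, against 0.781, 0.565 and 0.5503 CPM in wild-type libraries. Psmb8 had 8.63, 6.10 and 20.4 CPM in Stra8-deficient libraries, against 0.781, 2.26 and 0.367 CPM in wild-type libraries. For all 3 genes the third Stra8-deficient library was the highest and the second the lowest, and the genotypes did not overlap. On the log2 scale Psmb10 rose by 4.51 ± 0.46 (SE; edgeR, adjusted p = 2.16e-05) and Psmb9 by 4.45 ± 0.44 (SE; edgeR, adjusted p = 1.57e-05). Psmb8 rose by 3.31 ± 0.67 (SE; edgeR, adjusted p = 0.00162), which was 2.61 without the third Stra8-deficient and 4.28 without the second wild-type library. Few wild-type reads stand behind the last 2 genes. Psmb9 had 527 reads against 12, which is 23.5-fold (95% counting interval 13.3 to 45.8), and Psmb8 had 454 against 23, which is 10.6-fold (95% counting interval 6.95 to 16.8). These exact intervals cover counting error only.

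Set against their common partners within each library, Psmb9 and Psmb10 also separated the genotypes. Per transcript length, Psmb10 over Psmb7 was 0.729, 0.418 and 0.625 in Stra8-deficient libraries, against 0.102, 0.0444 and 0.0314 in wild-type libraries. Psmb9 over Psmb6 was 0.0513, 0.0410 and 0.0437 in Stra8-deficient libraries, against 0.00474, 0.00387 and 0.00434 in wild-type libraries. The log2 ratios differed by 3.46 for Psmb10 and by 3.39 for Psmb9, with p = 0.1 for each in exact two-sided permutation (0.133 adjusted). Psmb10 thus came within reach of its partner in the enlarged testes, while Psmb9 remained far below Psmb6 in both genotypes. Psmb8 over Psmb5 was 2.73, 6.48 and 3.20 in Stra8-deficient libraries, against 0.405, 1.21 and 2.76 in wild-type libraries, which overlapped (exact permutation p = 0.2, also 0.2 adjusted). That ratio rests on the few reads of Psmb5. Psmb11 was read 0 times in Stra8-deficient and once in wild-type libraries, where 3 counts are the limit that a count of 0 allows.

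**Figure D3:**
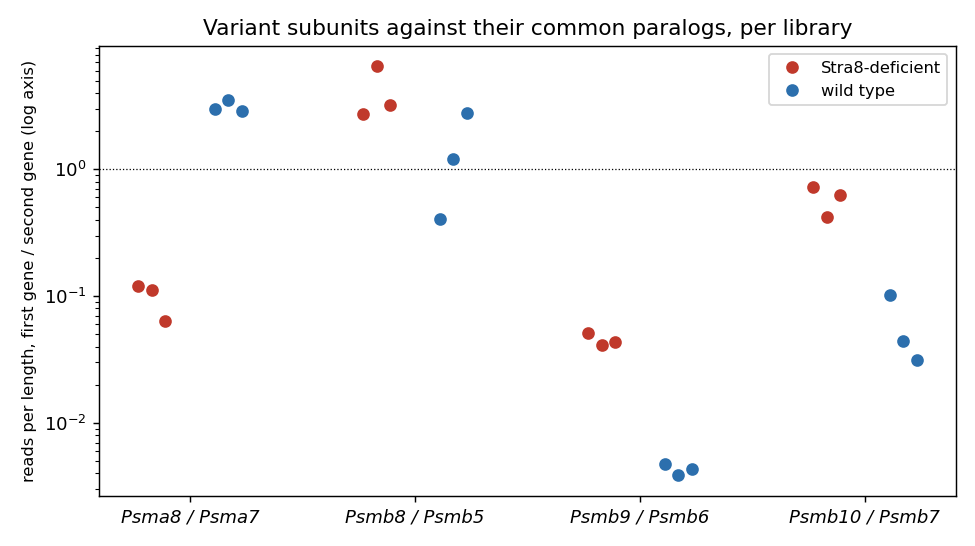
Reads per transcript length of each variant subunit over those of its common paralog, 1 point per library, on a log axis where the dotted line marks equal levels. Psma8 over Psma7 was below the line in all 3 Stra8-deficient (red) and above it in all 3 wild-type libraries (blue), and Psmb9 over Psmb6 and Psmb10 over Psmb7 were higher in Stra8-deficient libraries without overlap, whereas Psmb8 over Psmb5 overlapped.

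Leukocytes carry the immune subunits, and most tested leukocyte markers were higher too. Of the 14 listed markers in the files 10 were tested, and 8 were higher and 2 lower, with Aif1 among the lower. Over all genes tested the shares were 39.0% higher and 36.7% lower. Of the tissue macrophage markers, Cd68 rose to 81.7 CPM, against 3.07 CPM in wild type, and Lyz2 to 158 CPM, against 4.49 CPM. All 14 together summed to 293, 220.5 and 759.7 CPM in Stra8-deficient libraries, against 376, 405 and 349 CPM in wild-type libraries, which overlapped. Leaving out Aif1, a choice made after its value was seen (335.8 CPM on average in wild type), the markers summed to 285, 219 and 736 CPM in Stra8-deficient libraries, against 37.5, 37.0 and 47.3 CPM in wild-type libraries. Psmb8, Psmb9 and Psmb10 together summed to 141, 88.8 and 207 CPM in Stra8-deficient libraries, against 10.3, 6.92 and 3.67 CPM in wild-type libraries. The immune sum and the leukocyte sums were highest in the third and lowest in the second Stra8-deficient library. The sums of Leydig and Sertoli cell markers had the same order, and those of endothelial and peritubular markers had other orders. In Stra8-deficient libraries endothelial markers summed to 41.5, 61.9 and 43.1 CPM and peritubular markers to 30.6, 69.9 and 127 CPM. Leydig cell markers summed to 324, 18.4 and 2669.9 CPM in Stra8-deficient libraries, against 1131, 739 and 1216 CPM in wild-type libraries. Sertoli cell markers summed to 214, 89.9 and 672 CPM in Stra8-deficient libraries, against 1759, 1573 and 1659 CPM in wild-type libraries. Of the lymphocyte markers, Cd79a had 9 reads against 0 in wild type, Cd3e 15 against 14, and Ms4a1 5 against 20. The part of leukocytes or of other somatic cells in the level of the immune subunits was not tested. Of 11 tested genes of the MHC class I and interferon list, 6 were higher, 2 lower and 3 not called, among them Irf1, a transcription factor that interferon induces, at 5.94 ± 0.22, and Tap1, a peptide transporter gene beside Psmb9, at 1.70 ± 0.45. Ifng, the interferon itself, had 1 read in Stra8-deficient and 0 in wild-type libraries.

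Because the immune subunits moved together, the 250 bases before their start sites are shown beside those of Psmb6, a common catalytic subunit (RefSeq, GRCm38.p6). Each runs 5′ to 3′ towards the gene. Capitals mark matches, on either strand, to a STAT motif (GAS, TTCNNNGAA), an interferon-stimulated response element (ISRE, GAAA and GAAA with NN between) or an antioxidant response element (ARE, TGACNNNGC), the kind of element to which Nfe2l1, an activator of proteasome genes, binds.
Psmb8, chr17:34197945-34198194, plus strand: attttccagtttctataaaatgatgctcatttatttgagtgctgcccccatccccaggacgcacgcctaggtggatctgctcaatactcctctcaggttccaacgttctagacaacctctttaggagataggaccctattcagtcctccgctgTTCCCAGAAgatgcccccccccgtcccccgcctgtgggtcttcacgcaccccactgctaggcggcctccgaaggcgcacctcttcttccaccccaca
Psmb9, chr17:34187331-34187580, minus strand: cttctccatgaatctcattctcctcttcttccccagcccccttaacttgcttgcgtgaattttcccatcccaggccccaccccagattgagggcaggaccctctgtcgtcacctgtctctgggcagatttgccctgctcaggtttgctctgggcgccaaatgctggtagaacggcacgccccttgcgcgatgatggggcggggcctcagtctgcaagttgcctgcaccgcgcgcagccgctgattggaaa
Psmb10, chr8:105938393-105938642, minus strand: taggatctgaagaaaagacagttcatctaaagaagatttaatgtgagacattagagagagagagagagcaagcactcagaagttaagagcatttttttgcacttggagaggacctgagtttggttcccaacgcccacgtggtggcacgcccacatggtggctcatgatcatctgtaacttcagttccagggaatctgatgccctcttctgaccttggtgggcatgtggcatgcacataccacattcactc
Psmb6, chr11:70525107-70525356, plus strand: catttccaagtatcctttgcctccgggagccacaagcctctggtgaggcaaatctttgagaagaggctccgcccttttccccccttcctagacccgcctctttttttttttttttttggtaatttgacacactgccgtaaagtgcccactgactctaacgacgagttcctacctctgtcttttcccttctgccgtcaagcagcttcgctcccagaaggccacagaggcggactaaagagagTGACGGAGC
The GAS letters stand in the window of Psmb8 and the ARE letters in that of Psmb6, whereas the windows of Psmb9 and Psmb10 hold none of the 3 motifs. Among the 40 members with a promoter in the table, GAS occurred in 2 (Psmb8 and Psmg1), ISRE in 3 (Psmb3, Psmd4 and Psmd9) and ARE in 5 (Psmb5, Psmb6, Psmc6, Psmd12 and Psmd9). Over all 32851 promoters of the table the shares were 7.02%, 2.98% and 10.2%. A match of letters is a description and not a binding site.

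In the regulatory particle the direction depended on the subunit. Of the 6 ATPases, which form the unfolding ring, Psmc1, Psmc4, Psmc5 and Psmc6 rose, by 2.19, 1.60, 0.79 and 1.21 on the log2 scale with TMM, although Psmc5 and Psmc6 were below 0 against the common core sum. The other 2, Psmc2 and Psmc3, were lower. Psmc3 had 336, 391 and 453 CPM in Stra8-deficient libraries, against 783, 885 and 914 CPM in wild-type libraries (-1.13 ± 0.18 on the log2 scale; SE; edgeR, adjusted p = 4.17e-04). Psmc2 had 162, 297 and 389.5 CPM in Stra8-deficient libraries, against 471, 483 and 470.1 CPM in wild-type libraries (-0.75 ± 0.29; SE; edgeR, adjusted p = 0.0394). No library of either gene overlapped between genotypes. The call of Psmc2 was lost with upper-quartile factors (-0.48), with library size alone (-0.14), without the second Stra8-deficient library (-0.83) or without any 1 wild-type library (-0.77 to -0.75). Per transcript length, Psmc3 averaged 216 CPM per kb in Stra8-deficient testes, against 473 CPM per kb in wild type.

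Of the 11 non-ATPase subunits 7 rose, 1 was lower and 3 were not called. On the TMM scale the rises ran from 0.61 for Psmd4 to 1.46 for Psmd14. Psmd4 is a receptor for ubiquitin chains, and Psmd14 is the enzyme that removes ubiquitin from substrates as they enter. Against the common core all 7 had values below 0, but only Psmd4 was called lower (-0.88 ± 0.31, SE), and Psmd14 was near 0 (-0.01 ± 0.30, SE). Psmd14 had 77.7, 90.4 and 100.1 CPM in Stra8-deficient libraries, against 37.0, 30.5 and 29.9 CPM in wild-type libraries. Psmd8, which sits in the lid, had 146, 130.2 and 254 CPM in Stra8-deficient libraries, against 379, 362 and 334 CPM in wild-type libraries. It fell by 1.02 on the log2 scale (SE 0.26; edgeR, adjusted p = 0.00570), but was not called with library size alone (-0.40). The base and lid subunits Psmd2 (0.34; edgeR, adjusted p = 0.0805), Psmd3 (-0.42; edgeR, adjusted p = 0.190) and Psmd6 (0.52; edgeR, adjusted p = 0.0522) were not called, although the genotypes did not overlap for any of the 3. Psmd2 and Psmd6 were called higher with library size alone (0.96 and 1.14), with upper-quartile factors (0.62 and 0.80) and without the first Stra8-deficient library (0.37 and 0.59), and Psmd6 also without the second (0.59), without the low-count filter (0.55) and in limma (0.50). Psmd3 had 108, 49.3 and 98.5 CPM in Stra8-deficient libraries, against 121, 109 and 112 CPM in wild-type libraries, and its sign turned to 0.20 with library size alone. The calls of Psmd4 and Psmd11 were weak. Psmd4 lost its call without the second (0.60) or the third wild-type library (0.53). Psmd11 (0.77; edgeR, adjusted p = 0.0318) lost it with RLE factors (0.65), in DESeq2 (0.65) and without each library but the third Stra8-deficient one (0.52 to 0.88).

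All 7 factors that assemble the particles rose on the TMM scale, of which Psmd9, Psmd10 and Psmg2 were below 0 against the common core. Psmd5, Psmd9 and Psmd10 are chaperones of the ATPase ring, and Psmg1 to Psmg4 build the alpha ring. Psmd5 stood out, with 247, 289.6 and 299.9 CPM in Stra8-deficient libraries, against 23.4, 23.7 and 28.8 CPM in wild-type libraries. That is a log2 fold change of 3.46 ± 0.19 (SE; edgeR, adjusted p = 3.49e-07), with little spread in either genotype. Psmd9 (1.33 ± 0.29) and the X-linked Psmd10 (1.32 ± 0.23) rose less. The 4 Psmg genes ranged from 1.48 (Psmg2) to 2.09 (Psmg3), close to the median of the 13 tested common core subunits, 1.90.

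The activators split by kind. Psme1 and Psme2 encode the paired subunits of the interferon-inducible cap, Psme3 a nuclear relative, and Psme4 the large cap of germ cells that acts in the proteolysis of acetylated histones. Psme4 had 107, 153 and 91.6 CPM in Stra8-deficient libraries, against 1051, 1199 and 1074 CPM in wild-type libraries. It fell by 3.24 on the log2 scale (SE 0.24; edgeR, adjusted p = 2.39e-06), 9.45-fold. Psme1 had 78.0, 46.0 and 131 CPM in Stra8-deficient libraries, against 9.52, 6.78 and 4.77 CPM in wild-type libraries. The rise was 3.59 ± 0.42 (SE; edgeR, adjusted p = 5.21e-05), with the third Stra8-deficient library highest and the second lowest, as for the immune subunits. Psme2 had 26.6, 4.67 and 14.1 CPM in Stra8-deficient libraries, against 1.72, 1.41 and 0.367 CPM in wild-type libraries, so that the first Stra8-deficient library was the highest. It was at 3.65 ± 0.71 on the log2 scale, or at 2.93 without that library. On the TMM scale Psme3 rose by 0.56 ± 0.20 (SE; edgeR, adjusted p = 0.0283), a call that was lost with RLE factors (0.45), in DESeq2 (0.45) and without any 1 wild-type library (0.52 to 0.59), and it was lower against the common core sum.

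Psmf1, an inhibitor of the core particle in vitro, moved with Psme4. It had 73.6, 59.2 and 62.2 CPM in Stra8-deficient libraries, against 433, 470.3 and 461 CPM in wild-type libraries. The groups were far apart, and the gene fell by 2.81 on the log2 scale (SE 0.18; edgeR, adjusted p = 8.60e-07).

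The comparison of the variants with the common subunits was also made in a fit in which each library was scaled to its summed reads of the 14 common core subunits. The error of that sum is not carried into the fit. Of all genes 13.1% were higher and 58.3% lower on this scale, and among the 46 members 11 were called higher and 12 lower, with no call for 23. The common core subunits among these members are part of the sum they were scaled to. Their values on this scale therefore depend on each other, as a fall of 1 raises the rest. Members that were higher on the TMM scale but below 0 on this one were Psmb6, Psmb7, Psmc5, Psmc6, Psmg2 and 10 Psmd and Psme genes. Of these 15, only Psmd4 and Psme3 were called lower here. The remaining 13 were not called, so no difference from the common core sum was shown for them, and Psmg2 was near 0 (-0.02 ± 0.29, SE). Psma8 had 21.5, 27.8 and 15.4 reads per 1000 common core reads in Stra8-deficient libraries, against 181, 188 and 181 in wild-type libraries. It fell by 3.09 (SE 0.34; edgeR, adjusted p = 1.95e-07), 8.52-fold. Psmb10 had 67.6, 35.96 and 54.0 reads per 1000 in Stra8-deficient libraries, against 10.5, 4.89 and 3.77 in wild-type libraries. It was higher by 3.03 ± 0.41 (SE; edgeR, adjusted p = 2.86e-06), and Psmb9 by 2.95 ± 0.51 (SE; edgeR, adjusted p = 4.51e-05). Both immune subunits thus rose beyond the sum of the common ones, though not clearly beyond each of them, since Psmb3 was at 2.53 ± 0.72 (SE). Psmb8 was higher by 1.75 ± 0.57 (SE; edgeR, adjusted p = 0.0103), a call lost without the third Stra8-deficient (1.43; edgeR, adjusted p = 0.0506) or the third wild-type library (1.40; edgeR, adjusted p = 0.0602), and the value was 2.71 without the second wild-type library. The lowest members on this scale were Psme4 (-4.65 ± 0.42) and Psmf1 (-4.24 ± 0.39). Psma6 (-2.33) was lower too, and it alone held 385 to 415 of 1000 common core reads in wild-type libraries, against 73.2 to 81.6 in Stra8-deficient libraries. Reads of the common core were thus spread differently over its subunits in the 2 genotypes.

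**Figure D4:**
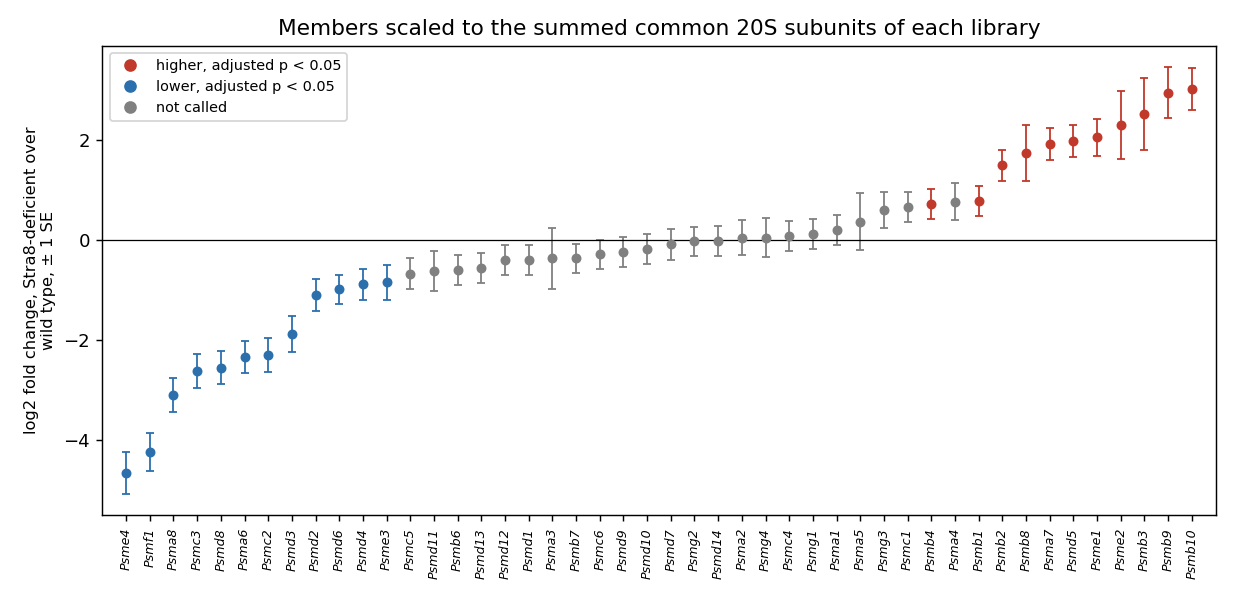
Log2 fold change of each tested member, Stra8-deficient over wild type, after each library was scaled to its summed common core subunits, ordered from lowest to highest with bars of 1 SE. Blue points (12 genes, from Psme4 to Psme3) were lower, red points (11 genes, with Psmb9 and Psmb10 highest) were higher and the 23 grey ones were not called. The common core subunits among the points are themselves part of the sum.

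Several common subunits had levels far below those of their partners in the same ring, which touches every comparison of levels between members. Processed pseudogenes of proteasome genes are numerous in mouse, and the labels do not say whether reads matching more than 1 place were counted. Of each member's longest coding transcript in GENCODE M21, the share of 36-base stretches found in a transcript of another gene was computed. The true read length is not given in the sources used here. For 22 members it was 0%, and for 4 it was over 50%, namely Psmb5 (70.3%), Psme2 (64.4%), Psmb3 (64.3%) and Psma5 (63.1%). The median level of these 4 was 9.49 CPM per kb in Stra8-deficient testes, against 0.951 CPM per kb in wild type, while the 26 members with at most 5% shared had medians of 93.9 CPM per kb in Stra8-deficient testes, against 53.5 CPM per kb in wild type. Levels of these 4 genes, and the ratio of Psmb8 to Psmb5, are therefore uncertain, and the part of shared sequence in their low counts was not tested. Among the 26 members with at most 5% shared, a set defined after seeing the data, 18 were higher and 6 lower. Psma8, Psma7, Psmb10, Psme4 and Psmf1 each had 0% shared. Psmb9 shared 13.4% with its neighbour Tap1. Psmb7, the partner of Psmb10 in its ratio, had 31.4% shared, so how near Psmb10 came to Psmb7 is uncertain as well. Psma4 (41.8%), Psmd2 (39.2%) and Psmc1 (33.2%) shared more than Psmb7, so their levels are uncertain too.

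**Figure D5:**
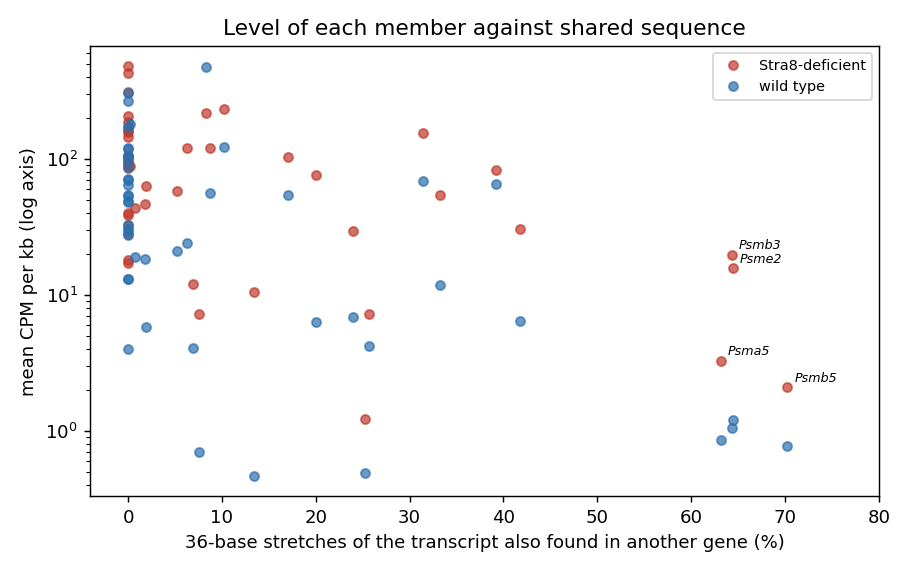
Mean level per kb of transcript of each member, on a log axis, against the percentage of its 36-base stretches also found in another gene, with 1 red point for Stra8-deficient and 1 blue point for wild type. The 4 members over 50% lay between 2.10 and 19.7 CPM per kb in Stra8-deficient testes and between 0.772 and 1.21 CPM per kb in wild type, and Psmb11, at 0 CPM in Stra8-deficient testes, is not drawn.

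Of 29 listed genes that work with the proteasome but fall outside its naming scheme, 25 were in all 6 files. Of these 10 were higher, 9 lower and 6 not called, close to the shares over all genes tested, 39.0% higher and 36.7% lower. The highest were Nfyb (2.93 ± 0.22), a subunit of the CCAAT-binding factor, Pomp (2.19 ± 0.32), the chaperone that completes the core particle, and Txnl1 (2.11 ± 0.18), a thioredoxin of the regulatory particle. Shfm1, the smallest subunit of the regulatory particle, and Usp14, a deubiquitinase that binds it, were higher as well. Among the lowest were the glycanase gene Ngly1 (-4.28 ± 0.21) and Ddi1. Ddi1, a protease-like shuttle gene, was read 0 times in Stra8-deficient and 5200 times in wild-type libraries, at least 3239-fold lower when 3 counts over the group are assumed. The ubiquilins Ubqln1 (-1.79), Ubqln2 (-1.81) and Ubqln4 (-1.75) and the shuttle gene Rad23b (-1.39) were lower too. Nfe2l1, the activator of proteasome genes, was higher by 0.79 ± 0.23 (SE; edgeR, adjusted p = 0.0113). The protease gene Ddi2 was higher too (1.64 ± 0.23), whereas the glycanase gene Ngly1, as given above, was lower (-4.28 ± 0.21).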

How the data were processed

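RNA of 6 testes was prepared with TRIzol and DNase, and libraries with an Illumina mRNA kit, per the labels' protocols. The submitters' processing notes name TopHat, HTSeq, edgeR and mm9. The sources used here give no versions, annotation, read length or strand handling, so reads of overlapping or antisense genes cannot be told apart. The deposited counts are raw reads per symbol. Lines of HTSeq that name no gene, 20.9% to 34.5% of a library's reads, were left out. The deposited table of the authors' comparison gives log2 ratios and abundances. The p-value columns the authors deposited hold nominal and corrected p.

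Here, the 21786 symbols in all 6 files were filtered with filterByExpr (15018 kept), scaled by TMM and tested with edgeR 4.0.16 (quasi-likelihood, robust, R 4.3.3, genotype as the one term, Benjamini-Hochberg over all genes, threshold 0.05). SE is the log2 fold change over the root of F. Ratios added 0.5 to both counts. Alternatives used RLE, upper-quartile or no factors, no filter, DESeq2 1.42.0, limma 3.58.1 (voom, weights per genotype), a replicate block, and each library left out. Methods were tested on simulated data in which few genes changed and all libraries varied alike. Here most genes were called and the genotypes differed in variation, so that test does not check the methods in this setting. Replicate files differed beyond sampling noise (chi-square over df of 2.66 or more). The labels describe separate males. Transcript lengths come from GENCODE M21, chromosomes and promoters from RefSeq (GRCm38.p6). All members could be named, of the pathway list the 3 highest and 3 lowest called (results for some genes are not reported here), and others named were chosen after their values were seen. Members and lists were chosen with earlier results of these data known. Columns of unmatched samples numbered 0.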

Additional observations from a re-analysis of the deposited data

How the results depend on the processing

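Of 52 single values followed over 13 alternatives (46 members and 6 genes of the pathway list), 41 kept their direction and their side of the threshold in each. Psmd3 alone changed sign, to 0.20 with library size alone. The count of members called lower was 4 with library size alone, where Psma6, Psmc2 and Psmd8 lost their calls. Members called higher numbered 31 to 37 and members called lower 6 to 7 when any 1 library was left out, and 18 were higher among members with at most 5% of their 36-mers shared. Against the common core subunits, Psmb8 ranged from 1.40 to 2.71 over libraries left out and lost its call without the third Stra8-deficient or the third wild-type library, while Psma8 ranged from -3.32 to -2.90, Psmb9 from 2.84 to 3.10 and Psmb10 from 2.78 to 3.59. Left-out values of the log2 ratios ran from -5.22 to -4.76 for Psma8 to Psma7, 1.07 to 2.45 for Psmb8 to Psmb5, 3.30 to 3.46 for Psmb9 to Psmb6 and 3.10 to 3.95 for Psmb10 to Psmb7. Scaled to the ATPase subunits instead, Psma8 was at -1.35 and Psmb10 at 4.78. Replicate numbers do not pair the libraries: deviations of same-numbered libraries correlated at 0.0626, 0.105 and -0.0451. With the replicate number as a block 35 members were higher and 7 lower, as without it, and Psma8 was at -1.65. Depth limits Psmb5, Psmb8, Psmb9, Psma3, Psma5, Psmb3 and Psme2, which had 12 to 26 reads over the 3 wild-type libraries.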

Other observations

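The authors' deposited table lists all 48 members. Its calls at a corrected p under 0.05 numbered 35 higher and 7 lower, but not for the same genes. The authors' deposited table calls Psma3 (corrected p = 0.0193) and Psmb5 (corrected p = 0.0209), and does not call Psmd4 (corrected p = 0.0654) and Psme3 (corrected p = 0.106), which edgeR called here. For log2 ratios, the authors' deposited table and the edgeR fit used here had the same sign for all 46 members compared, with differences in log2 ratio from -0.00332 to 0.0284. For Psmb11, with a single read over all 6 libraries, the authors' deposited table gives a log2 ratio of -25.3 at a nominal p of 1, so the ratio of a gene without reads in a genotype is not a measure of size there.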
